A study of Rattus norvegicus with 16 samples.

Results

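The genes of the ionotropic glutamate receptor subunits of the AMPA and NMDA classes were followed in rat prefrontal cortex (PFC) after a session of acute inescapable footshock (FS). The members were taken by gene symbol: Gria1, Gria2, Gria3 and Gria4 for the AMPA receptor, and Grin1, Grin2a, Grin2b, Grin2c, Grin2d and Grin3a for the NMDA receptor. All 10 genes had at least 1 probe set carrying a single symbol, out of 17245 such genes on the array, and all 10 passed the filter on low values, which left 10423 genes. Each gene is given by its brightest probe set over the arrays.

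The tissue came from adult male Sprague-Dawley rats, 8 of them taken directly after an FS session of 40 min (0.8 mA, with shock delivered for 20 min in all) and 8 controls that had remained in the home cage. The labels give no genotype or drug for either group, and the shocks and the rest of the session procedure cannot be told apart. Each sample was read on 1 Affymetrix Rat Gene 1.0 ST array, which sums probes placed along the whole transcript. Values are RMA expression on the log2 scale, where a difference of 1 is a doubling.

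Both receptor classes are tetramers, and most of their forms open on binding glutamate. AMPA receptors carry the fast excitatory current, and those that lack the GluA2 subunit (Gria2) let calcium through. NMDA receptors need the GluN1 subunit (Grin1) together with GluN2 subunits (Grin2a to Grin2d) or GluN3 subunits. Those of GluN1 with GluN2A or GluN2B open mainly when the membrane is depolarised, and start the plasticity of cortical synapses. In the maturing forebrain GluN2A joins and partly replaces GluN2B. The array sums all transcripts of a gene, so the flip and flop splice forms of the AMPA subunits and the edited site of Gria2 were not read.

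Promoter sequence was looked up because zinc finger factors of the Egr family, which neuronal activity induces, and Sp1 bind GC-rich elements near glutamate receptor genes. RefSeq promoters of the GRCr8 assembly, 300 bases each, were found for 5 of the 10 members: Grin1, Grin2c, Grin2d, Grin3a and Gria4. The Egr letters GCGNGGGCG, searched on both strands, occurred in Grin1 and Gria4 and in 4.98% of all 33469 promoters. The Sp1 letters GGGCGG occurred in Grin1 alone among the 5 members and in 33.1% of all promoters. In Grin1 the Sp1 letters overlap the Egr match. The NRF-1 motif (4.25% of promoters) and the cAMP response element TGACGTCA (1.83%) were in none of the 5. The stretches around both Egr matches are shown as the members whose start region holds the element, with the matches in capitals. The Grin1 stretch lies at chr3:28528713-28528789, minus strand, with the Egr match beginning at base 26 after the annotated start, and the Gria4 stretch at chr8:10319911-10319987, minus strand, with the match beginning at base -46. These matches describe letters, and binding was not measured.
Grin1: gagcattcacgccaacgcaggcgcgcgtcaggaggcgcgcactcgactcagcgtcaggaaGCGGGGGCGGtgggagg
Gria4: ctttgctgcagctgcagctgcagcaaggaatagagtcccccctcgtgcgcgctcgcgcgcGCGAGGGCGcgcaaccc

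The arrays were alike as a whole, with correlations between arrays from 0.981 to 0.997 and no pair holding the same values. They differed in markers of neurons of the striatum and of the cortex, in both groups. A marker score averages the tested genes of a list, each first centred on its own mean across the 16 arrays (log2). The striatal projection neuron score (12 of 16 listed genes tested, among them Drd1 and Ppp1r1b) ran from -0.98 to 1.77 in controls, with a median of -0.94, and from -1.05 to 1.47 in FS rats, with a median of 0.74. Control replicate 6 held the highest score, and the next control was at 0.24. Drd1 was measured from 4.95 to 8.63 in controls and from 5.20 to 8.46 in FS rats, always above the filter's bound of 4. The cortical excitatory neuron score (10 of 12 tested) ran from -0.81 to 0.48 in controls and from -0.95 to 0.35 in FS rats. Its marker Slc17a7, the vesicular glutamate transporter of cortical neurons, was at 9.49 or above in all arrays. The myelin score (14 of 15 tested) ran from -0.62 to 0.21 in controls and from -0.017 to 0.33 in FS rats. All 12 striatal and all 14 myelin genes had a higher mean in FS rats, and all 10 cortical excitatory genes a lower one. Of all probe sets 57.5% were lower. An unadjusted p under 0.05 in limma was held by all 14 myelin genes, by 3 striatal genes and by 1 cortical excitatory gene. Of all probe sets 3.65% were higher and 5.67% lower at that threshold. None of these genes had an adjusted p under 0.05. In tissue RNA, fewer cells of a type and less RNA per cell cannot be told apart.

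No AMPA or NMDA receptor subunit gene passed the test between FS and control rats. By limma, 0 of 10 members had an adjusted p under 0.05, as did 0% of the 11352 probe sets tested. At an unadjusted p under 0.05 there were 0 of 10 members, against 9.32% of all probe sets, made up of 3.65% that were higher after FS and 5.67% that were lower. The members' differences had a median of -0.030, beside -0.018 over all probe sets, and 8 of 10 were below 0, as were 57.5% of all probe sets. The ranges of the groups overlapped in every member. The exact test used below runs over the 12870 ways to split the arrays 8 to 8, is two-sided, and can go down to p = 0.000155. Differences are FS minus control with the standard error (SE) and 95% interval from limma.

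**Figure D1:**
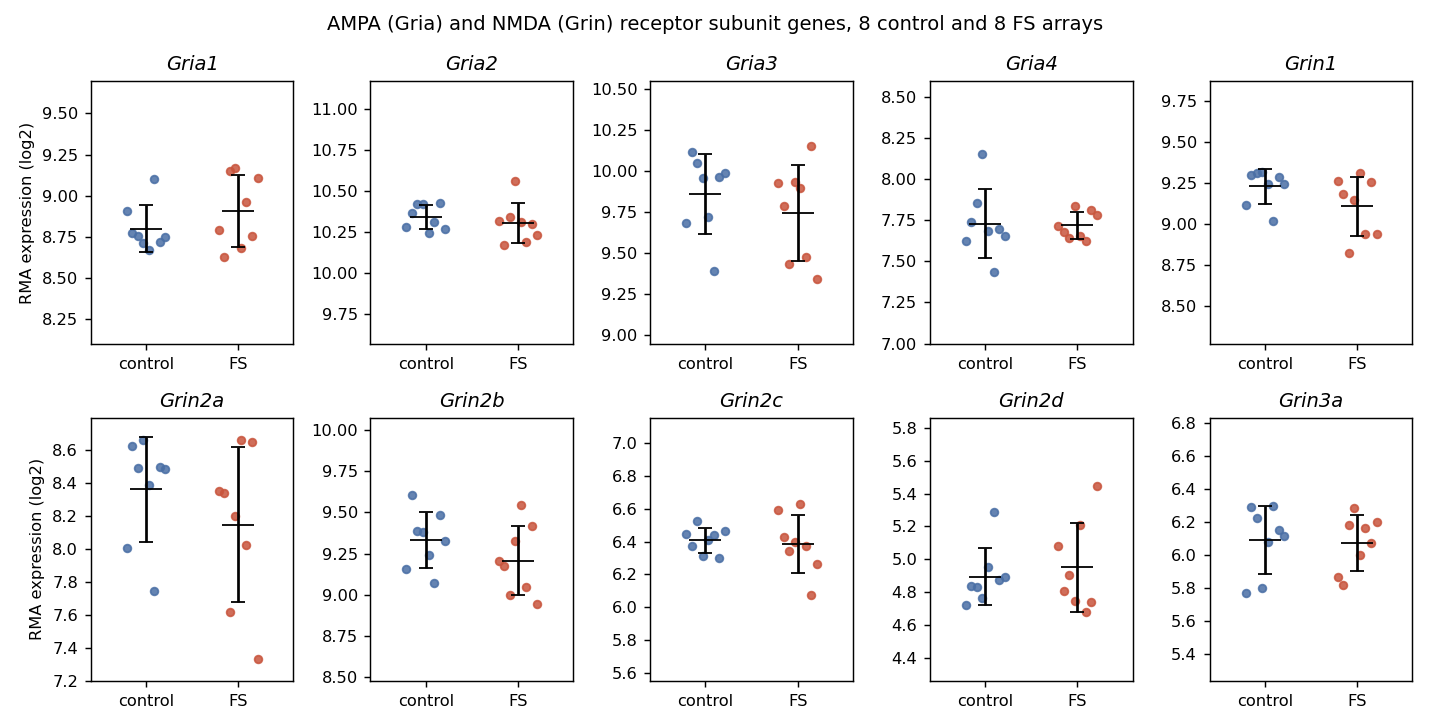
RMA expression (log2) of the 10 receptor subunit genes in each of 8 control and 8 FS arrays, with points for arrays, a horizontal line for the mean and bars for 1 SD; every panel spans the same 1.6 log2 units. The groups overlap in all 10 panels, and Grin2a is the most widely spread, from 7.33 to 8.66.

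The AMPA subunits came first by role. Gria1 encodes GluA1, a subunit that is inserted at synapses during potentiation. It was measured from 8.67 to 9.10 in controls (median 8.75) and from 8.62 to 9.17 in FS rats (median 8.88). Among FS rats 3 arrays, replicates 3, 4 and 8, lay above the control range, and 1 lay below it. The difference was 0.11 ± 0.088 (interval -0.079 to 0.29, n = 8 per group, exact permutation p = 0.266, adjusted p = 0.662).

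Gria2 encodes GluA2, whose edited pore site blocks calcium. Its values were 10.25 to 10.43 in controls (median 10.34) and 10.17 to 10.56 in FS rats (median 10.31). FS rats held both the lowest arrays and the highest, replicate 4. The difference of -0.039 ± 0.055 (interval -0.15 to 0.077) gave an exact permutation p of 0.460. Gria2 also had the narrowest spread over arrays of the 10 members, since 83.7% of all probe sets had a larger residual SD than its 0.101.

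Gria3 encodes GluA3, which pairs with GluA2 in cortical pyramidal cells. Controls ranged from 9.39 to 10.12 (median 9.96) and FS rats from 9.34 to 10.15 (median 9.84). The lowest control, replicate 6, lay among the lowest FS rats, and the next control was at 9.68. Of the FS arrays 4 lay above the control mean and 4 below. The difference was -0.12 ± 0.12 (interval -0.38 to 0.14, exact permutation p = 0.393). A second Gria3 probe set with values between 5.54 and 5.98 differed by -0.086 ± 0.057 (adjusted p = 0.594 in limma). It varied over arrays in another way, with r = 0.176 to the higher probe set after group means were taken off.

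Gria4 encodes GluA4, in the adult cortex mainly a subunit of interneurons. It lay between 7.44 and 8.15 in controls (median 7.69) and between 7.62 and 7.84 in FS rats (median 7.70). All 8 FS arrays fell inside the control range. The difference was -0.011 ± 0.077 (interval -0.17 to 0.15, exact permutation p = 0.897), and it turned positive when the arrays were centred on their medians (0.0064).

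Grin1 encodes GluN1, the subunit that every NMDA receptor holds and the site of glycine and D-serine binding. It was measured from 9.02 to 9.32 in controls (median 9.27) and from 8.82 to 9.31 in FS rats (median 9.17). In FS rats 3 arrays, replicates 3, 6 and 8, lay below all controls, and the other 5 lay among them. The difference was -0.12 ± 0.073 (interval -0.28 to 0.032), with an exact permutation p of 0.122 and an adjusted p of 0.569 in limma. It was the smallest p of the 10 members.

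Grin2a had the largest difference of the members and by far the widest spread. It encodes GluN2A, which gives NMDA receptors fast decay. Its values in controls were 8.01, 8.63, 8.49, 8.66, 8.39, 7.75, 8.50 and 8.49 for replicates 1 to 8. In FS rats they were 8.35, 8.34, 7.62, 8.20, 8.66, 8.03, 8.65 and 7.33. FS replicates 8 and 3 lay below all controls, control replicate 6 came next, and the highest arrays of the groups were level. The SD was 0.32 in controls and 0.47 in FS rats, and only 4.00% of all probe sets had a larger residual SD than Grin2a. The difference was -0.22 ± 0.18, that is 0.861-fold (interval -0.60 to 0.17, exact permutation p = 0.305, adjusted p = 0.667 in limma).

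Grin2b encodes GluN2B, which slows the decay and binds CaMKII. It ranged from 9.07 to 9.61 in controls (median 9.35) and from 8.94 to 9.54 in FS rats (median 9.19). As for Grin1, FS replicates 3, 6 and 8 were the 3 arrays below the control range. The difference was -0.13 ± 0.092 (interval -0.32 to 0.067, exact permutation p = 0.209).

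The remaining NMDA subunits had small differences. Grin2c, which encodes a subunit known best from cerebellar granule cells, was at 6.30 to 6.53 in controls (median 6.42) and at 6.08 to 6.63 in FS rats (median 6.38). FS arrays lay on both sides of the narrow control range, 2 below and 2 above, and the difference was -0.021 ± 0.068 (interval -0.16 to 0.12, exact permutation p = 0.776). Grin2d, a subunit of early development and of interneurons, lay between 4.72 and 5.29 in controls (median 4.85) and between 4.68 and 5.44 in FS rats (median 4.86), not far above the filter's bound of 4. Its difference was 0.056 ± 0.11 (interval -0.17 to 0.28, exact permutation p = 0.633). Grin3a encodes GluN3A, which makes receptors with little calcium flow. It lay between 5.77 and 6.30 in controls (median 6.13) and between 5.82 and 6.29 in FS rats (median 6.12), all inside the control range. Its difference was -0.019 ± 0.089 (interval -0.21 to 0.17, exact permutation p = 0.837).

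The size of these differences depended on single arrays, in both directions. With each array left out in turn, Grin2a ran from -0.099 (without FS replicate 8) to -0.30 (without control replicate 6, the array with the highest striatal score). Gria3 ran from -0.059 to -0.18 with the same arrays left out. Grin1 ran from -0.082 (without FS replicate 3) to -0.15 (without control replicate 6), Grin2b from -0.086 to -0.17, and Gria1 from 0.068 (without FS replicate 4) to 0.15 (without control replicate 6). Gria2 ran from -0.021 (without FS replicate 2) to -0.076 (without FS replicate 4). The smallest adjusted p in limma over these runs was 0.306, for Grin1 without control replicate 6. With that array and FS replicate 3 both left out, Grin2a differed by -0.23 and Grin1 by -0.11.

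The balance between subunits was followed within each array for 3 pairs, as the log2 value of 1 gene minus that of the other. Probe sets of different genes are not on a common scale, so only the change in such a difference is read. The SE of a pair change was computed from the SDs of both groups, not by limma. Grin2a minus Grin2b ran from -1.33 to -0.72 in controls (median -0.94) and from -1.61 to -0.77 in FS rats (median -0.95), a change of -0.090 ± 0.13 (exact permutation p = 0.488). Gria1 minus Gria2 ran from -1.71 to -1.21 in controls (median -1.59) and from -1.63 to -1.12 in FS rats (median -1.46). This change, 0.15 ± 0.092, was the largest of the 3 in size (exact permutation p = 0.135). Grin3a minus Grin1 changed by 0.10 ± 0.14 (exact permutation p = 0.458). The adjusted p-values over the 3 pairs were 0.488, 0.405 and 0.488, and the groups overlapped in each pair. With each array left out in turn, Gria1 minus Gria2 ran from 0.11 without FS replicate 8 (exact permutation p = 0.253) to 0.19 without control replicate 6 (exact permutation p = 0.0413, and 0.124 adjusted over the pairs). Grin2a minus Grin2b ran from -0.011 without FS replicate 8 to -0.14 without control replicate 6. Grin3a minus Grin1 ran from 0.047 without FS replicate 3 to 0.16 without control replicate 6. After group means were taken off, the pair values moved with the striatal score at r = -0.779, 0.876 and 0.644 in the same order.

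**Figure D2:**
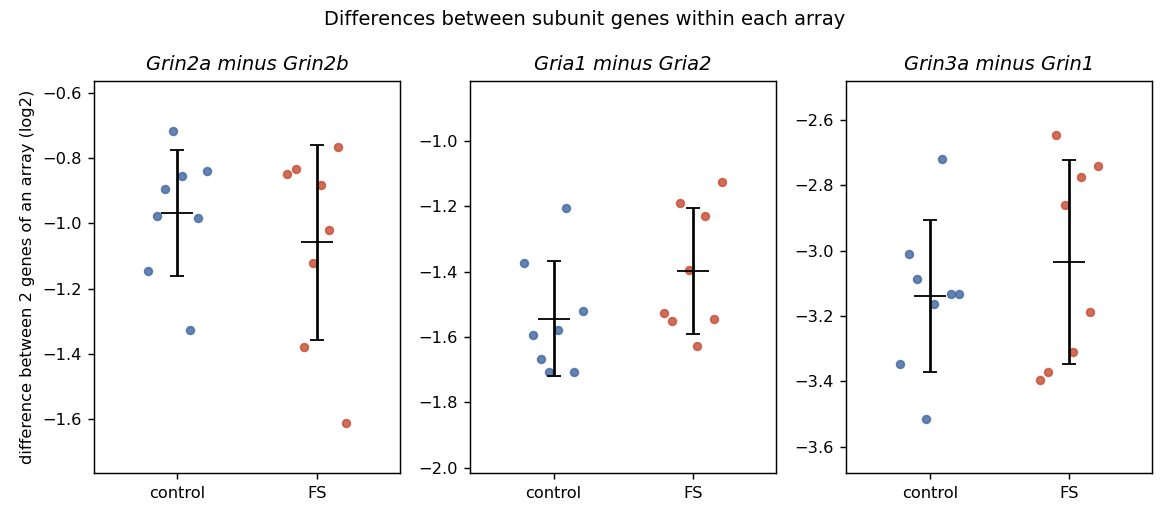
Differences between 2 subunit genes within each array (log2) for Grin2a minus Grin2b, Gria1 minus Gria2 and Grin3a minus Grin1, in 8 control and 8 FS arrays; lines are means and bars 1 SD. The groups overlap in all 3 panels, with the lowest Grin2a minus Grin2b value, -1.61, in an FS array.

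The subunits did vary over arrays, and over all 16 arrays 5 of the 10 were correlated with the striatal score. The share of all tested genes correlated with a marker score was not computed, so this count does not set the subunits apart. Over the 16 arrays the striatal score was negatively correlated with Grin1 (r = -0.890, rho = -0.771), Grin2a (r = -0.879, rho = -0.818), Gria3 (r = -0.866, rho = -0.909) and Grin2b (r = -0.841, rho = -0.815). The permutation p-values of r, from 100000 resamples adjusted over 20 relations (10 members and 2 scores), were 0.0001, 0.0001, 0.00025 and 0.00025, and those of rho were 0.0038, 0.0016, 0.0006 and 0.00173. Gria1 went the other way, with r = 0.802 (adjusted permutation p = 0.0016) and rho = 0.582 (adjusted permutation p = 0.0516). The unadjusted p of 1e-05 for Grin1 and Grin2a is the smallest that 100000 resamples can give. The slopes were steepest for Grin2a, at -0.35 log2 units per unit of score, against -0.22 for Gria3, -0.16 for Grin2b and -0.14 for Grin1. Gria1 rose by 0.15 per unit. The second Gria3 probe set, with r = 0.176 to the one used here (group means off), was not compared with the score.

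For these 5 genes r had the same sign within each group. In controls r was -0.961 for Grin1, -0.956 for Grin2a, -0.922 for Gria3, -0.794 for Grin2b and 0.947 for Gria1. In FS rats r was -0.870, -0.860, -0.849, -0.859 and 0.712 in the same order. With 8 arrays, the exact permutation test adjusted over the 20 relations passed in controls for the 4 negative relations and for none in FS rats, where those 4 had an adjusted p of 0.0558. Gria1 passed in neither group (adjusted exact permutation p = 0.0673 in controls and 0.23 in FS rats). In controls rho was -0.619 for Grin1, -0.548 for Grin2a, -0.905 for Gria3, -0.690 for Grin2b and 0.262 for Gria1. In FS rats rho was -0.905, -0.952, -0.810, -0.881 and 0.690 in the same order. The unadjusted exact permutation p-values of rho were 0.115, 0.171, 0.00456, 0.0694 and 0.536 in controls. Those in FS rats were 0.00456, 0.00114, 0.0218, 0.00724 and 0.0694. Without control replicate 6, r among the other controls was -0.937, -0.940, -0.811, -0.730 and 0.765 (unadjusted exact permutation p = 0.0298, 0.0214, 0.00298, 0.0478 and 0.141). Without control replicate 6 and FS replicate 3, the arrays farthest from the median score, r over the other arrays was -0.882, -0.829, -0.795, -0.806 and 0.701. All 5 then passed at the adjusted threshold. A difference between the groups in these relations was not tested.

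**Figure D3:**
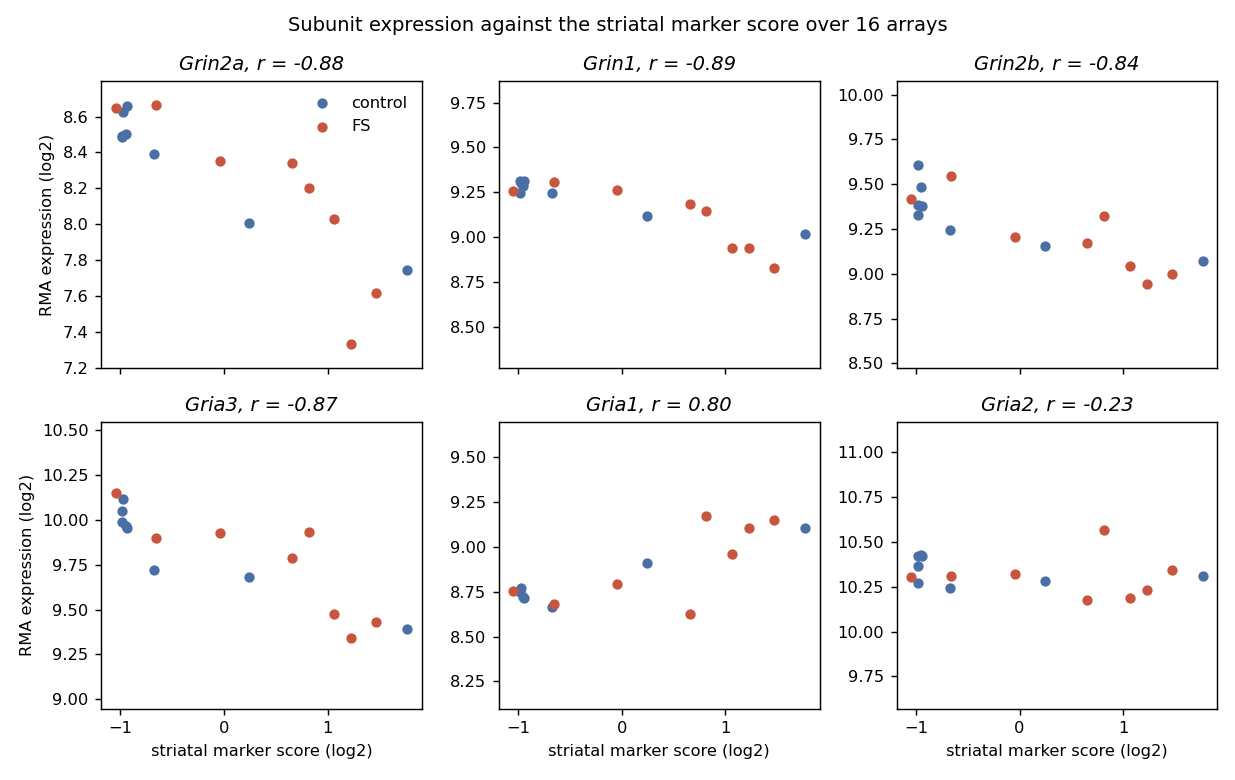
RMA expression (log2, vertical axis) of 6 subunit genes against the striatal marker score (log2, horizontal axis), with 1 point for each of the 16 arrays coloured by group and r over the 16 arrays in each title. Over the 16 arrays Grin2a, Grin1, Grin2b and Gria3 fall and Gria1 rises along the score, with control replicate 6 at the far right, and Gria2 (r = -0.23) is shown as a member that did not pass.

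The other 5 subunits did not pass against the striatal score: r was -0.467 for Gria4, -0.234 for Gria2, 0.00473 for Grin2c, 0.322 for Grin2d and 0.207 for Grin3a (adjusted permutation p = 0.122, 0.512, 0.987, 0.375 and 0.512). Against the myelin score only Grin2b passed by r (r = -0.672, adjusted permutation p = 0.0126; rho = -0.718, adjusted permutation p = 0.0103). Without control replicates 2 and 7, the arrays farthest from the median, its r was -0.487 (unadjusted permutation p = 0.0709), so by r the call rests on those arrays. By rho, Grin1 (-0.600) and Grin2a (-0.615) passed as well, with adjusted permutation p of 0.045 and 0.0425.

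The cortical excitatory score, a choice made after the striatal relation had been seen, gave the mirror picture. Over the 16 arrays r was 0.953 for Grin2a, 0.932 for Grin1, 0.907 for Gria3, 0.844 for Grin2b and -0.797 for Gria1. The largest adjusted permutation p of these over 10 relations was 0.00176, and rho was 0.915, 0.956, 0.776, 0.885 and -0.603. Without FS replicates 3 and 8, the arrays farthest from the median, r was 0.902, 0.882, 0.859, 0.751 and -0.677. Within FS rats r was 0.978, 0.931, 0.919, 0.879 and -0.711, and within controls 0.906, 0.942, 0.886, 0.744 and -0.914. Gria1 did not pass within FS rats (adjusted exact permutation p = 0.108). Without control replicate 6, r among the other controls was 0.809, 0.940, 0.715, 0.650 and -0.579. The unadjusted exact permutation p-values were then 0.0262, 0.000992, 0.072, 0.113 and 0.17. Gria4 did not pass over the 16 arrays (r = 0.458, adjusted permutation p = 0.119). It passed without FS replicates 3 and 8 (r = 0.671, adjusted permutation p = 0.0378). The scores themselves are not separate measures, since striatal and cortical excitatory scores had r = -0.899 over the arrays, and striatal and myelin scores r = 0.633.

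With the striatal score as a covariate in limma, the largest member difference fell from 0.22 to 0.11 in size. Grin2a then differed by 0.11 ± 0.10 (interval -0.11 to 0.32) and Grin1 by -0.0037 ± 0.051 (interval -0.11 to 0.10). Gria3 differed by 0.098 ± 0.073, Grin2b by 0.019 ± 0.065 and Gria1 by -0.026 ± 0.067. The signs of Grin2a, Gria3, Grin2b and Gria1 thus turned, and no member had an unadjusted p under 0.05. With the cortical excitatory score as the covariate, Grin2a differed by 0.031 ± 0.068 and Grin1 by -0.033 ± 0.043, and the largest member difference was 0.064 in size. Score and group overlap in part, so how much of a difference belongs to either was not tested.

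**Figure D4:**
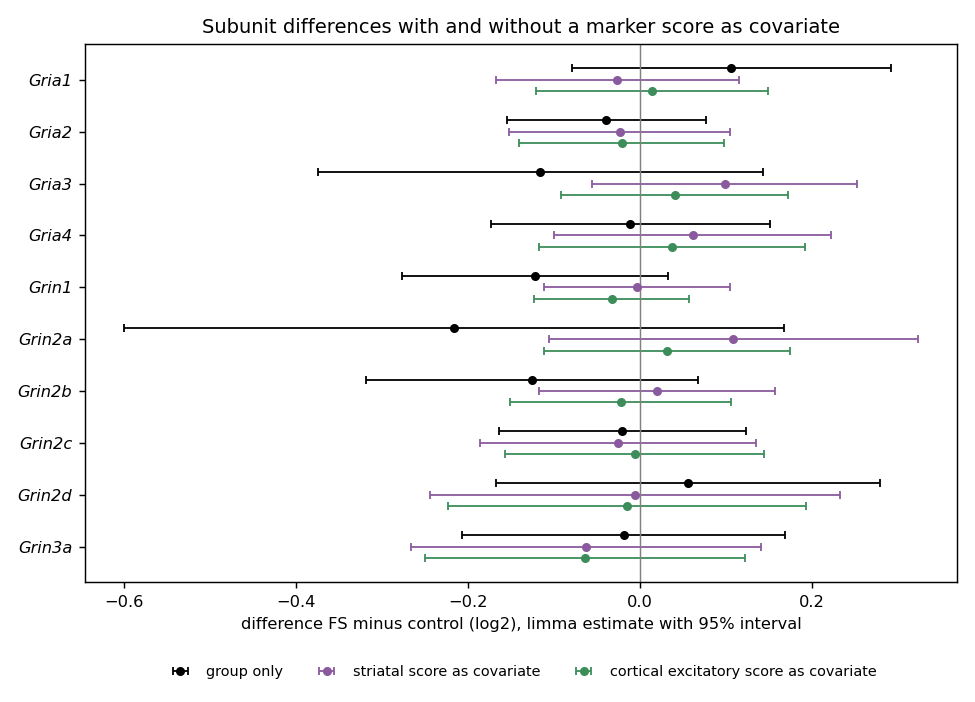
Difference FS minus control (log2, horizontal axis) with its 95% interval for each subunit gene, from limma with group only (black), with the striatal score (purple) and with the cortical excitatory score (green) as covariate. Every interval includes 0, and the Grin2a estimate moves from -0.22 to 0.11 and 0.031.

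Most pairs of these 5 genes were correlated with each other. Among the 45 pairs of members, after group means were taken off, 6 positive and 2 negative correlations passed at an adjusted permutation p under 0.05. All 6 positive ones were among Grin1, Grin2a, Grin2b and Gria3. The share of passing pairs among other tested genes was not computed, so these counts do not set the members apart. Grin1 with Grin2a was highest (r = 0.915, rho = 0.926), followed by Gria3 with Grin2a (r = 0.905, rho = 0.776) and Gria3 with Grin1 (r = 0.893, rho = 0.776). The adjusted permutation p-values of r were 0.00045, 0.00045 and 0.00063. Without the 2 farthest arrays r was 0.886, 0.843 and 0.859. The lowest pairs were Gria1 with Grin2a (r = -0.804, rho = -0.765, adjusted permutation p = 0.00469), Gria1 with Grin1 (r = -0.793, rho = -0.753, adjusted permutation p = 0.0116) and Gria1 with Gria3 (r = -0.623, rho = -0.426, adjusted permutation p = 0.0885). Gria1 with Grin2b did not pass either (r = -0.582, rho = -0.506, adjusted permutation p = 0.116). Within controls and within FS rats, Grin1 with Grin2a had r = 0.981 and 0.891, and Gria1 with Grin2a r = -0.898 and -0.763. The median over the 45 pairs was 0.105. With the striatal score also taken off, Grin1 with Grin2a had r = 0.643, Gria3 with Grin2a 0.588 and Gria1 with Grin2a -0.390.

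**Figure D5:**
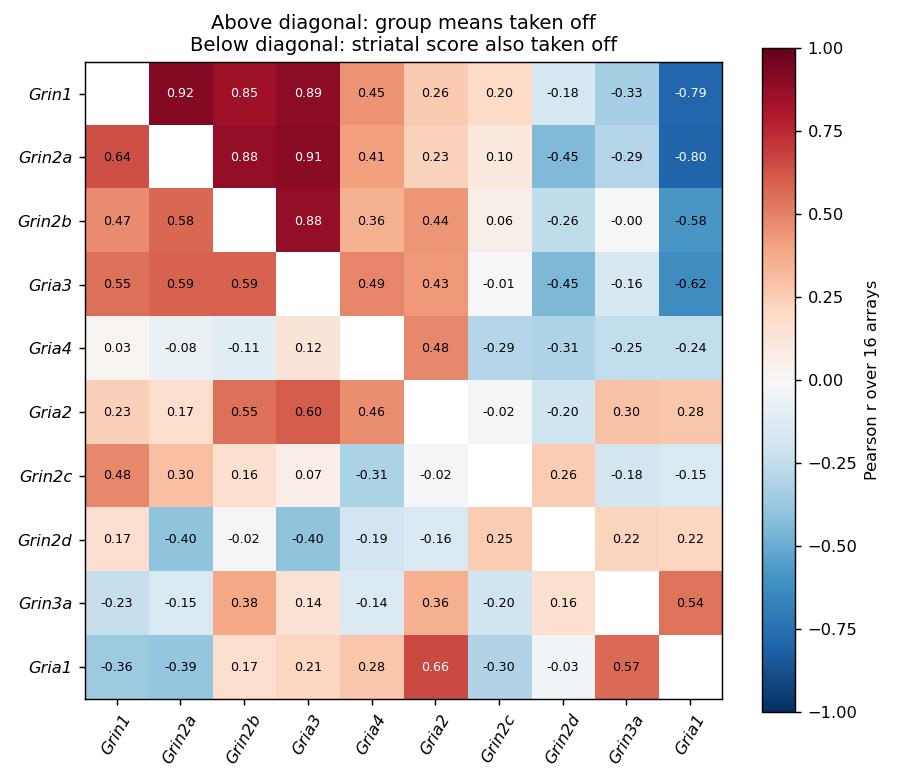
Pearson r between the 10 subunit genes over the 16 arrays, above the diagonal with group means taken off and below it with the striatal score also taken off; red is positive and blue negative. Grin1, Grin2a, Grin2b and Gria3 form a block with r from 0.85 to 0.92 above the diagonal, and the same pairs lie between 0.47 and 0.64 below it.

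Genes whose pattern over the 16 arrays was most like that of each member were taken as the 3 with the highest r among 10422 other genes, with group means off, as a description. For Grin2a they were Slc30a3 (0.981), the zinc transporter of glutamatergic vesicles and itself in the cortical excitatory list, the potassium channel gene Kcnh7 (0.980) and Zbtb18 (0.980), a transcription factor of cortical development. Grin1 was most like Ttll11, Depdc5 and Adgra1 (0.973 to 0.974). Gria3 was most like Mapk10, which encodes the neuronal kinase JNK3 (0.960), Dnajc6, which encodes auxilin (0.959), and Chn1, which encodes a chimaerin (0.957). Grin2b was most like Tcf25 (0.946), Clec3a (0.931) and the ephrin receptor gene Epha4 (0.930). For Gria1 the list was of another kind, with the splicing genes Hnrnph1 (0.938) and U2surp (0.933) and the zinc finger gene Zc3h12c (0.931). Gria2 was nearest to Ppp2r3c (0.934), Prmt3 (0.923) and Prdx3 (0.914), and Gria4 to Lrrc49 (0.914), Tmem65 (0.905) and Eps15 (0.881). Grin3a was nearest to Man1a1 (0.909), Slc7a14 (0.893) and Sh3gl3 (0.876). The likeness was lower for Grin2d, with Cygb at 0.844, Prr5 at 0.827 and Rhbdl1 at 0.819, and for Grin2c, with Nisch at 0.822, Arsa at 0.790 and Mad2l1bp at 0.768.

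Genes of proteins that assemble, carry or act on these receptors gave a like result. Of 55 genes listed in 5 partner lists, 47 were tested, and none passed the adjusted threshold. At an unadjusted p under 0.05 there were 1 higher and 3 lower, against 3.65% and 5.67% of all probe sets. In sign, 20 were higher and 27 lower in FS rats, with a median of -0.022. Of all probe sets 57.5% were lower in sign, with a median of -0.018.

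Among 19 AMPA auxiliary subunits and assembly factors, 1 was higher and 2 were lower at the unadjusted threshold, against 3.65% and 5.67% of all probe sets. Shisa6, an auxiliary subunit that holds AMPA receptors at synapses, was at 5.94 to 6.80 in controls (median 6.18) and at 6.21 to 7.25 in FS rats (median 6.61). In FS rats 7 of 8 arrays exceeded the control mean, with a difference of 0.36 ± 0.14 (adjusted p = 0.509 in limma). Cacng3, a transmembrane AMPA receptor regulatory protein (TARP γ-3), was at 9.77 to 10.26 in controls (median 10.07) and at 9.22 to 10.12 in FS rats (median 9.87), a difference of -0.30 ± 0.13 (adjusted p = 0.523 in limma). Cpt1c, a protein of the endoplasmic reticulum that binds GluA1, ranged from 6.93 to 7.18 in controls (median 7.06) and from 6.60 to 7.10 in FS rats (median 6.89). In FS rats 7 of 8 arrays fell short of the control mean, with a difference of -0.17 ± 0.062 (adjusted p = 0.509 in limma). The groups overlapped in these 3 genes. With the striatal score as covariate the differences were 0.22 ± 0.13, -0.089 ± 0.094 and -0.098 ± 0.058, and none had an unadjusted p under 0.05. With the cortical excitatory score as covariate they were 0.27 ± 0.13, -0.13 ± 0.070 and -0.11 ± 0.051. Shisa6 and Cpt1c then kept an unadjusted p under 0.05 (adjusted p = 0.896 and 0.889 in limma).

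In the trafficking list 10 of 12 genes were lower in sign, as were 57.5% of all probe sets. The list had a median of -0.058, and 0 of 12 had an unadjusted p under 0.05, against 9.32% of all probe sets. The smallest p-values belonged to Nsf (-0.072 ± 0.061), the ATPase that binds GluA2, the neuronal pentraxin receptor gene Nptxr (-0.26 ± 0.24) and the scaffold gene Grip2 (-0.078 ± 0.073). Nptx2, a secreted pentraxin that clusters AMPA receptors, differed by -0.22 ± 0.26. Nptxr ranged from 8.28 to 9.62 in controls and from 8.21 to 9.71 in FS rats, and its difference was 0.18 ± 0.11 with the striatal score as covariate.

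Among 12 tested NMDA receptor partners, 0 were higher and 1, Src, was lower at the unadjusted threshold, against 3.65% and 5.67% of all probe sets. Src, a kinase that raises NMDA currents, ranged from 7.02 to 7.42 in controls (median 7.22) and from 6.64 to 7.27 in FS rats (median 7.07), a difference of -0.18 ± 0.084 (adjusted p = 0.532 in limma). With the striatal score as covariate its difference was -0.057 ± 0.068. Camk2a, the kinase subunit that docks on GluN2B, differed by -0.14 ± 0.078, and Ephb2, a receptor that binds GluN1, by -0.22 ± 0.17. Actn2, an actin-binding anchor of NMDA receptors, had a difference of 0.33 ± 0.21, and of -0.023 ± 0.13 with the striatal score as covariate.

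The 3 adenosine deaminases that act on RNA, of which Adarb1 encodes the enzyme editing the Gria2 pore site, did not pass. Adar differed by 0.071 ± 0.059, Adarb1 by 0.055 ± 0.063 and Adarb2, which has no known editing activity, by 0.14 ± 0.14. The related delta receptor gene Grid1 differed by 0.039 ± 0.096.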

How the data were processed

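Total RNA of 16 PFC samples, 8 control and 8 FS, was hybridised to Affymetrix Rat Gene 1.0 ST arrays. The deposited values are log2 expression, which the authors computed by RMA in oligo (version 1.58.0), a method that corrects background, aligns the arrays' distributions and summarises each probe set. An array-wide shift is therefore not visible. The number of arrays limits the precision, and the median SE of a difference was 0.073. Samples were grouped by their titles. Nothing in the labels says more of the replicates than that they are separate samples, so p-values measure the spread between these samples.

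Names came from the platform annotation: 18644 of 29214 had 1 symbol, 962 several, and 9608 were unnamed here. Of the named, 18460 were found by gene ID in RefSeq. Those with a single symbol whose mean exceeded 4 entered the test, 11352 probe sets of 10423 genes, with limma (version 3.58.1, R 4.3.3, group only, eBayes, Benjamini-Hochberg), after the study's methods. Single values were tested by exact permutation and correlations by 100000 resamples (SciPy 1.17.1, Python 3.11.15). The fits were tested on simulated data. The members and lists were chosen with earlier results of these data known. Named were all members and, per partner list, the 3 smallest p-values and the 2 largest differences, the 3 genes most like each member, and the 3 highest and lowest member pairs. Cell type lists not given in the report were those of interneurons (11 tested, median difference 0.083), oligodendrocyte precursors (6, 0.23), astrocytes (7, 0.059), microglia (7, 0.0022) and vascular or meningeal cells (8, 0.44). Grin3b shares its probe set with another symbol and was not analysed here.

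Alternatives were 3 other filters, 1 probe set per gene, trended and robust or weighted variance models, centring, the replicate number as a block, striatal or myelin score as covariate, and each array left out. After seeing the data, the cortical excitatory score, leaving out control replicate 6 alone within controls or together with FS replicate 3, and member correlations with the striatal score taken off were added. Correlations between members had been planned as a description without p-values.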

Additional observations from a re-analysis of the deposited data

Results flagged for a closer look

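In 26 groups of 8 arrays (13 series of values, each in both groups), 2 values lay apart from the others of their group by Dixon's criterion at the 95% level. Chance gives about 1 in 20 groups. Gria2 was at 10.56 in FS replicate 4, with the nearest other FS array at 10.34, a gap of 0.572 of the range. Grin2d was at 5.285 in control replicate 6, with the nearest other control at 4.953, a gap of 0.588 of the range. Control replicate 6 is also the array with the highest striatal score, 1.77, and without it the Grin2d difference was 0.11.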

How the results depend on the processing

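Over the alternatives 0 of 10 members passed at 0.05, adjusted or not, and limma gave an adjusted p of at least 0.306 (Grin1, without control replicate 6). Grin1 and Gria2 kept a negative sign throughout. Same-numbered arrays were not taken as pairs, since the labels do not state a pairing. Their r, with group means off, ran from -0.313 to 0.492, with 4 of 8 above 0.1. Whether same-numbered arrays are more alike than others was not tested. With the replicate block 1242 of all probe sets had an unadjusted p under 0.05, against 1058 without it, and the count of members was 0 in both. The pair changes had exact p = 0.57, 0.141 and 0.469 under the replicate block.

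With the striatal score as covariate, signs turned for Gria1 (-0.026), Gria3 (0.098), Gria4 (0.061), Grin2a (0.11), Grin2b (0.019) and Grin2d (-0.0060), and for the pairs Grin2a minus Grin2b (0.089), Gria1 minus Gria2 (-0.0026) and Grin3a minus Grin1 (-0.060). With the myelin score they turned for Gria1 (-0.00022), Gria3 (0.092), Gria4 (0.018), Grin2a (0.053), Grin2b (0.065), Grin2d (-0.022) and Grin3a (0.051). With the cortical excitatory score they turned for Gria3 (0.040), Gria4 (0.037), Grin2a (0.031) and Grin2d (-0.016). Centring turned Gria4 (0.0064) and array weights Grin2c (0.0056). The r of Grin2c with the myelin score was 0.0026 with group means off. With 1 array left out, differences ran from -0.053 to 0.049 for Gria4, from -0.055 to 0.024 for Grin2c, from -0.015 to 0.11 for Grin2d and from -0.065 to 0.018 for Grin3a. The cause of these turns was not tested, and none of these values passed a threshold.

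Of the partner genes 4 had an unadjusted p under 0.05. The count was 0 with the striatal score, 0 with the myelin score and 2 with the cortical excitatory score. With 1 array left out it was 2 to 9, with 9 without control replicate 6 and 2 without control replicates 2, 3, 4 or 7 or FS replicates 3, 6 or 8. The count over all 11352 probe sets moved as well, from 1058 to 476, 300 and 628 with the striatal, myelin and cortical excitatory scores. With 1 array left out it ran from 648 (without FS replicate 3) to 1870 (without control replicate 6). For Grin2d the level near the filter's bound limits what could be read.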
